A study of Mus musculus with 15 samples.

Results

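The mitosis genes described here are 50 mouse genes for the kinases, cyclins, motor proteins, centromere proteins and other parts of the machinery that divides a cell. They were chosen by name, and a gene counts as detected where a bead array probe with its symbol had a detection p-value under 0.05 on 3 or more arrays. Of the 50 genes, 49 had a probe, 37 were detected over all 15 arrays and 34 over the 12 arrays of the first deposited table. The same rule left 15098 features over 15 arrays and 14633 over 12 in the whole series. Ccnb1 had no probe under its symbol. The 12 genes with a probe but no detection on 3 arrays were Ccna2, Ccnb2, Nek2, Bub1, Ttk, Ube2c, Pttg1, Cenpe, Nuf2, Kif20a, Ect2 and Racgap1, and nothing is said here about their levels.

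The arrays measured total RNA of pancreatic ductal adenocarcinoma (PDAC) tumours from mice that all carried the αSMA-tk transgene in 5 groups of 3 arrays. The late ablation group with anti-CTLA4 received ganciclovir (GCV) at the PDAC stage together with a treatment against CTLA4, an inhibitory receptor of T cells. The late ablation group received ganciclovir at the PDAC stage, and the late control group received none. The early ablation group received ganciclovir at the stage of PanIN, the precursor lesion of this cancer, and the early control group received none. The control groups thus carried the transgene too, and the strains were mixed C57BL/6 and Balb/c. αSMA is the product of Acta2, a gene of myofibroblasts and smooth muscle, and a viral thymidine kinase driven by its promoter makes dividing cells that use that promoter sensitive to ganciclovir. The labels give no age or sex, do not name the alleles that drove the tumours, and do not say whether each array held RNA of a separate animal, so the p-values below measure only the spread between these arrays.

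Mitosis genes are transcribed in waves that peak late in the cell cycle, so in a tissue their transcripts follow the number of dividing cells. Cdk1 with its cyclins starts mitosis, polo and aurora kinases build the spindle, the checkpoint holds anaphase until every kinetochore is attached, and a separate set of motors and scaffolds then divides the cell. In bulk tumour RNA, fewer dividing cells and less mitotic RNA in each cell cannot be told apart. Many promoters of this class carry the cell cycle genes homology region, read by the MuvB complexes with B-MYB, FOXM1 or the repressive pocket proteins, and a CCAAT box, read by NF-Y.

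The promoters of the mitosis genes held these letters more often than promoters at large. RefSeq promoter windows on GRCm38.p6, each of 300 bases with 250 before and 50 after the transcription start, were matched by symbol for 43 of the 50 genes and 32 of the 37 detected ones, and 4 genes had several windows, giving 48. Both strands were searched. The core TTTGAA, counted with its reverse complement, was found in 33 of 48 windows (68.8%), against 16% of 21263 windows of protein-coding genes and 17.9% of all 32851 windows. CCAAT, counted with its reverse complement, was found in 38 of 48 windows (79.2%), against 38.2% of protein-coding and 37.4% of all windows. Both motifs stood in 29 of 48 windows (60.4%), against 6.38% of protein-coding and 6.95% of all windows. The related TTTAAA, its own reverse complement, was found in 10 of 48 windows (20.8%), against 11.9% and 13.2%. A match is a description of the sequence and not a site shown to be bound. 6 windows are given in full because Birc5, Top2a, Cdc20 and Plk1 were among the most variable members, Cdk1 is the central kinase, and Kif11 returns in both comparisons with early control arrays. Birc5 lies at chr11:117848987-117849286 on the plus strand, Top2a at chr11:99024140-99024439 on the minus strand and Cdc20 at chr4:118437294-118437593 on the minus strand. Plk1 lies at chr7:122159185-122159484 on the plus strand, Cdk1 at chr10:69352863-69353162 on the minus strand and Kif11 at chr19:37376132-37376431 on the plus strand. Each is written 5′ to 3′ along the gene, with TTTGAA and CCAAT matches on either strand in capitals:
Birc5: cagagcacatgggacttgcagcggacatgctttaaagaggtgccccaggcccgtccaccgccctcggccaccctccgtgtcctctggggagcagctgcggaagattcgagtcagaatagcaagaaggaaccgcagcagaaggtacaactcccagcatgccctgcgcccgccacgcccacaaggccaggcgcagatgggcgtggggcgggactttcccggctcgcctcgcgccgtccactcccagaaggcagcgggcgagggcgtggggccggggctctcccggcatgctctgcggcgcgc
Top2a: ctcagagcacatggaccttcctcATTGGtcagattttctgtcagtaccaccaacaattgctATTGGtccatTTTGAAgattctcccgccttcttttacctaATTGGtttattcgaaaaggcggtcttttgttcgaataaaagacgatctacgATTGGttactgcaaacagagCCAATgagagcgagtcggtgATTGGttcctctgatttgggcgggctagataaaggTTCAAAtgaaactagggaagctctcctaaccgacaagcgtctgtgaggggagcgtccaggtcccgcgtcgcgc
Cdc20: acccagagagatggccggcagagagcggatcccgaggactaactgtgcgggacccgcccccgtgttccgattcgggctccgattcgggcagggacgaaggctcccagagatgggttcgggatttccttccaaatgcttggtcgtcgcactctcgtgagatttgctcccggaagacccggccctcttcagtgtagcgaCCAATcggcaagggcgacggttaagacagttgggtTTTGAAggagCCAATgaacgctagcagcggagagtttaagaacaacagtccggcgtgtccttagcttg
Plk1: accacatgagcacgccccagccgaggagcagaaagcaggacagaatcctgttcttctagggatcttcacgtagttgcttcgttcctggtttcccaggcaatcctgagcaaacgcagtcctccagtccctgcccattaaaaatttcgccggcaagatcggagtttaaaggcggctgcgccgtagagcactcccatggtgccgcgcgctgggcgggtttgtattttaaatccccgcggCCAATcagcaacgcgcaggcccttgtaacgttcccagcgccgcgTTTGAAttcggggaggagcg
Cdk1: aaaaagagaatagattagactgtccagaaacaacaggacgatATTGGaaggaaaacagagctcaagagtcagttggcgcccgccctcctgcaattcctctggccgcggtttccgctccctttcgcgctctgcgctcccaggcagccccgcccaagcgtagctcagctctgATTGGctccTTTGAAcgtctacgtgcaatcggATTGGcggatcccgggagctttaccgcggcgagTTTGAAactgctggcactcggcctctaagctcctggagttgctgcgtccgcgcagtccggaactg
Kif11: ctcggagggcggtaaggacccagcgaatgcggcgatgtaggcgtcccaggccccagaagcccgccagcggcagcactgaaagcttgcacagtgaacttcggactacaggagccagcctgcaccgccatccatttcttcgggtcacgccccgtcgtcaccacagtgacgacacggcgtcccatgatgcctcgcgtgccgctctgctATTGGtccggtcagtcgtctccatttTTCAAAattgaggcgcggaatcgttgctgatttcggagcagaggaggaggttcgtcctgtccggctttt
Top2a, the DNA topoisomerase of mitotic chromosomes, held 2 TTTGAA and 6 CCAAT matches, and Cdk1 held 2 and 3. In Cdc20, Plk1 and Kif11 there was 1 TTTGAA match, whose first base lay at -18, 31 and -19 from the transcription start, with 2 CCAAT matches in Cdc20 and 1 each in Plk1 and Kif11. The Birc5 window held neither of these letter strings, which says nothing about what binds there. No base of the 6 windows lay in more than 1 match.

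**Figure D1:**
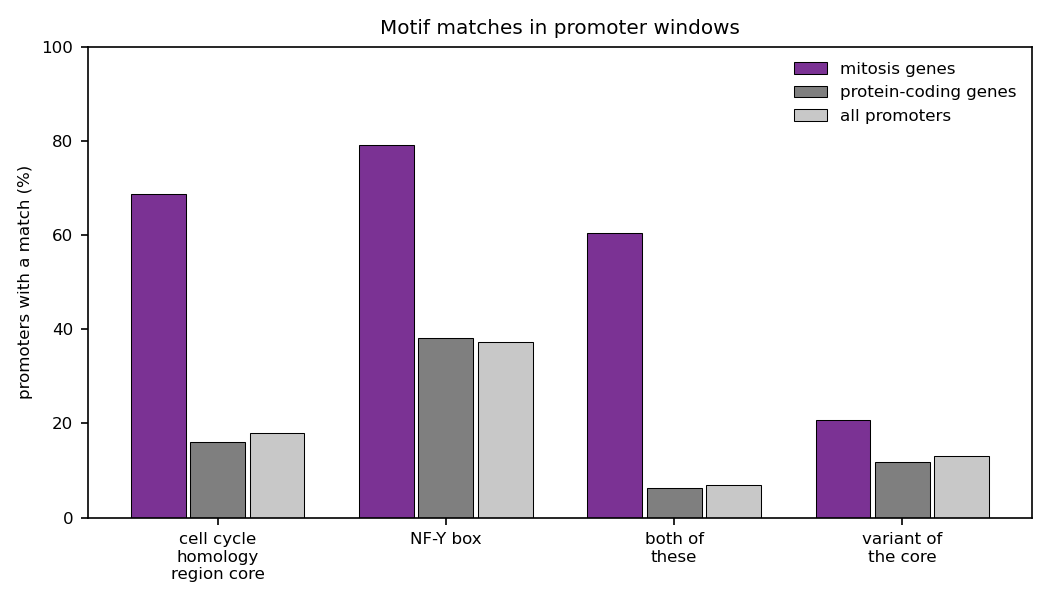
Percentage of promoter windows with a match to the core of the cell cycle genes homology region, to the NF-Y box, to both, and to the variant of the core, for mitosis genes (purple, 48 windows), protein-coding genes (dark grey, 21263) and all RefSeq windows (light grey, 32851). The purple bars stand at 68.8%, 79.2%, 60.4% and 20.8%.

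Of 45281 probes per array, 38.5% to 43.5% were detected, with 41.3% to 43.5% on early ablation arrays and 38.5% to 39.4% on early control arrays. Rank correlations over all 105 pairs of arrays ran between 0.889 and 0.973, and no 2 arrays were identical. Ductal markers fixed as a list were detected for 11 of 12 genes, with Spp1 missing, while 4 of 10 T cell and 2 of 8 B cell markers were detected. Early ablation array 1 stood apart in other cell types: its acinar markers averaged -3.39 log2 units from their mean over 15 arrays, and its T cell and B cell markers 1.22 and 1.46. Acta2 itself lay between 9.66 and 11.53 on the log2 scale on the anti-CTLA4 arrays, 10.56 and 12.55 on late ablation, 10.34 and 12.81 on late control, 10.98 and 13.58 on early ablation, and 11.44 and 12.43 on early control arrays, so that the groups overlapped.

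Arrays of the same group differed in most of the detected mitosis genes at once, least so among the late control arrays. Levels are log2 intensities after background correction and quantile normalization, over 15 arrays unless stated. The mean deviation of the 37 genes from their own means was -0.84, 0.40 and 1.00 on the anti-CTLA4 arrays, -0.61, 0.06 and -0.88 on late ablation, -0.32, -0.44 and -0.04 on late control, -0.35, 0.11 and 0.66 on early ablation, and 0.24, 0.14 and 0.88 on early control arrays. Anti-CTLA4 array 3 held the highest level of the 15 arrays for 18 of the 37 genes and early control array 3 for 15. The lowest level lay on anti-CTLA4 array 1 for 14 genes and on late ablation array 3 for 11. The number of genes above their own mean ran from 2 of 37, on early ablation array 1 and on late ablation arrays 1 and 3, to 35 of 37 on anti-CTLA4 array 3.

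**Figure D2:**
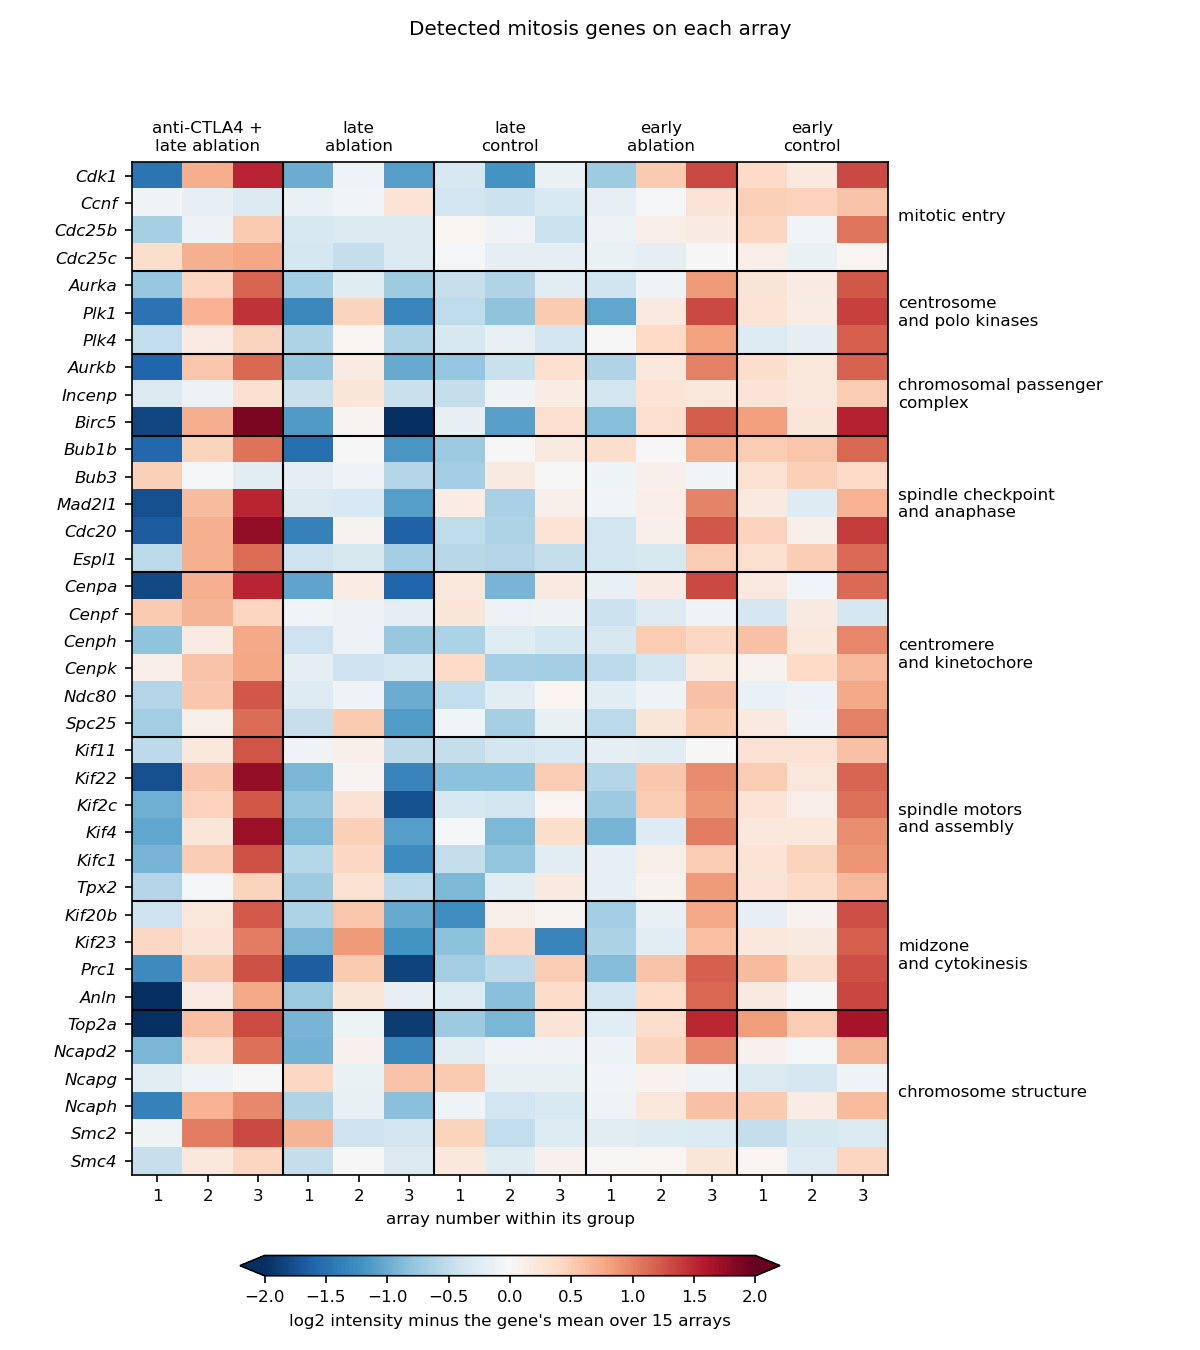
Log2 intensity of the 37 detected mitosis genes (rows, grouped by role) on the 15 arrays (columns, 3 per group), as the difference from each gene's mean over all arrays, with colours ending at 2 units either way. Anti-CTLA4 array 3 and early control array 3 are red over most rows, and anti-CTLA4 array 1 and late ablation array 3 are blue over most rows.

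For 34 of the 37 genes the widest range within a group exceeded the largest gap between any 2 group means, against 89.7% of all features, so this count is not particular to the members. For 28 of the 37 genes that widest range was the one among the anti-CTLA4 arrays, against 24.1% of all features. Ccnf, Cdc25c and Cenpf were the exceptions to the first of these counts. Anti-CTLA4 array 3 was higher than array 1 of the same group in 34 of 37 genes, with a median difference of 1.82 against -0.01 over all features. Among the late ablation arrays, array 2 was higher than array 1 in 31 of 37 genes (median difference 0.84, against 0.05 over all features). In both early groups array 3 was higher than array 1 in 35 of 37 genes, by a median of 1.02 on early ablation and 0.66 on early control arrays. Among the late control arrays, array 2 was higher than array 1 in 13 of 37 genes (median difference -0.11) and array 3 higher than array 1 in 24 (0.25). Late control array 3 was higher than array 2 in 29 (0.26). Early control array 2 was higher than array 1 in 11 (-0.11). By group means, early control was highest for 25 of 37 genes, anti-CTLA4 for 6, early ablation for 5 and late ablation for 1. Late ablation was lowest for 27 of 37 genes and late control for 6.

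Among the genes of mitotic entry, Cdk1, the kinase that drives cells into mitosis, was detected on all 15 arrays. Its level was 6.32, 8.50 and 9.30 on anti-CTLA4 arrays, 6.79, 7.68 and 6.68 on late ablation, 7.46, 6.58 and 7.64 on late control, 7.07, 8.30 and 9.09 on early ablation, and 8.16, 7.96 and 9.10 on early control arrays. The anti-CTLA4 arrays thus held both its lowest and its highest value. Ccnf, a cyclin that serves a ubiquitin ligase, was dim, with detection on the 3 early control arrays alone. Cdc25c, a phosphatase that switches Cdk1 on, was detected on the 3 anti-CTLA4 arrays alone, at 5.35, 5.72 and 5.78. Its signal was 4.65, 4.53 and 4.71 on late ablation, 4.95, 4.81 and 4.82 on late control, 4.86, 4.81 and 5.0 on early ablation, and 5.11, 4.87 and 5.04 on early control arrays. The 3 anti-CTLA4 values of Cdc25c were the highest of the 15. Cdc25b, a phosphatase of the same family, was detected on 8 arrays and ranged from 4.44 to 6.18.

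Of the centrosome and polo kinases, Plk1, which acts at centrosomes, kinetochores and the midzone, varied with an SD of 1.01 over the 15 arrays. Its level was 6.04, 8.20 and 8.95 on anti-CTLA4 arrays, 6.22, 7.96 and 6.21 on late ablation, 7.01, 6.70 and 8.03 on late control, 6.47, 7.71 and 8.84 on early ablation, and 7.78, 7.67 and 8.88 on early control arrays. Every other group overlapped the early control group. Aurka, the aurora kinase of the spindle poles, was 6.20, 7.38 and 8.12 on anti-CTLA4 arrays, 6.28, 6.72 and 6.25 on late ablation, 6.50, 6.35 and 6.75 on late control, 6.56, 6.87 and 7.81 on early ablation, and 7.22, 7.13 and 8.19 on early control arrays. All 3 late control values of Aurka lay below all 3 early control values. Plk4, which starts centriole duplication, was detected on 8 arrays and ranged from 4.70 to 6.51.

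The chromosomal passenger complex corrects faulty attachments of chromosomes to the spindle. Birc5, its survivin subunit, was the most variable member, with an SD of 1.19. It measured 5.84, 8.38 and 9.54 on anti-CTLA4 arrays, 6.53, 7.71 and 5.56 on late ablation, 7.50, 6.58 and 7.99 on late control, 6.80, 7.99 and 8.88 on early ablation, and 8.47, 7.90 and 9.20 on early control arrays. The highest and the lowest Birc5 values lay 3.98 log2 units apart. Aurkb, the kinase of the complex, was 4.75, 6.90 and 7.49 on anti-CTLA4 arrays, 5.58, 6.51 and 5.33 on late ablation, 5.57, 5.89 and 6.65 on late control, 5.74, 6.56 and 7.34 on early ablation, and 6.70, 6.56 and 7.52 on early control arrays. Incenp, the scaffold that holds the complex, followed in a much narrower range, 6.87 to 7.86.

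The spindle checkpoint holds back the anaphase-promoting complex, which then frees separase. Cdc20, the activator of the anaphase-promoting complex, was 6.58, 8.95 and 10.02 on anti-CTLA4 arrays, 6.89, 8.31 and 6.62 on late ablation, 7.73, 7.62 and 8.52 on late control, 7.87, 8.34 and 9.48 on early ablation, and 8.69, 8.34 and 9.64 on early control arrays. Bub1b, the BubR1 kinase-like checkpoint protein, was 5.61, 7.62 and 8.26 on anti-CTLA4 arrays, 5.67, 7.19 and 6.01 on late ablation, 6.45, 7.16 and 7.36 on late control, 7.53, 7.16 and 7.91 on early ablation, and 7.68, 7.73 and 8.32 on early control arrays. Both genes had their lowest and, except for Bub1b, their highest value on anti-CTLA4 arrays. Mad2l1, which inhibits Cdc20 while kinetochores are unattached, ranged from 6.07 to 9.36, with both ends on anti-CTLA4 arrays. Bub3, which carries checkpoint proteins to kinetochores, stayed within 5.96 to 7.11, and anti-CTLA4 array 1 was its highest array. Espl1, the separase that cuts cohesin, was detected on 6 arrays and ranged from 4.59 to 6.40.

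At the centromere, Cenpa, the histone variant that marks it, was the brightest probe of its group. It measured 7.99, 10.51 and 11.33 on anti-CTLA4 arrays, 8.75, 9.95 and 8.21 on late ablation, 10.03, 8.86 and 9.98 on late control, 9.64, 9.96 and 11.11 on early ablation, and 9.99, 9.74 and 10.93 on early control arrays. Ndc80, the microtubule-binding subunit of the outer kinetochore, was 5.03, 6.15 and 6.86 on anti-CTLA4 arrays, 5.37, 5.53 and 4.63 on late ablation, 5.13, 5.40 and 5.66 on late control, 5.39, 5.54 and 6.20 on early ablation, and 5.48, 5.52 and 6.38 on early control arrays. Spc25 of the same complex ranged from 4.75 to 6.99. Cenph and Cenpk, inner kinetochore proteins, ranged from 4.40 to 6.18 and from 5.13 to 6.57. Cenpf, a protein of the outer kinetochore, was detected on 4 arrays, among them all 3 anti-CTLA4 arrays, where it was 5.47, 5.62 and 5.37, against 4.52 to 5.19 on the other 12 arrays.

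Among the spindle motors, Kif11, the kinesin that pushes spindle poles apart, was detected on 6 arrays. Its signal was 4.43, 5.16 and 6.21 on anti-CTLA4 arrays, 4.87, 5.05 and 4.42 on late ablation, 4.47, 4.59 and 4.64 on late control, 4.75, 4.72 and 4.93 on early ablation, and 5.24, 5.24 and 5.53 on early control arrays. The early control values of Kif11 lay above all 9 values of late ablation, late control and early ablation. Tpx2, which activates aurora A on the spindle, was 4.76, 5.33 and 5.80 on anti-CTLA4 arrays, 4.64, 5.66 and 4.81 on late ablation, 4.46, 5.12 and 5.53 on late control, 5.18, 5.42 and 6.20 on early ablation, and 5.61, 5.74 and 6.01 on early control arrays. Kif22 and Kif4, chromosome-bound kinesins, ranged from 5.83 to 9.34 and from 4.72 to 7.54. Kif2c, which shortens microtubules, ranged from 4.77 to 7.76, and Kifc1, a minus-end motor, from 4.99 to 7.51. In all 4 of these, anti-CTLA4 array 3 was the highest array.

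For the midzone and cytokinesis, Prc1, which bundles midzone microtubules, varied with an SD of 1.06. It measured 7.54, 9.32 and 10.08 on anti-CTLA4 arrays, 7.16, 9.33 and 6.95 on late ablation, 8.12, 8.28 and 9.31 on late control, 7.94, 9.37 and 10.01 on early ablation, and 9.44, 9.15 and 10.09 on early control arrays. Anln, the scaffold of the contractile ring, ranged from 5.86 on anti-CTLA4 array 1 to 9.39 on early control array 3, and Kif20b, a late mitotic kinesin, from 4.76 to 7.29. Kif23, the kinesin of centralspindlin, had 4 detected probes that disagreed, and the brightest one was not the same over 12 and over 15 arrays. In early ablation against early control the 4 Kif23 probes gave log2 differences of 1.44, -0.36, -0.62 and -0.94, so they settle no direction for that gene. Counts of members higher or lower take Kif23 by the brightest probe of each fit.

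Of the genes of chromosome structure, Top2a, the topoisomerase that untangles sister chromatids, was nearly as variable as Birc5, with an SD of 1.16. It measured 4.66, 7.47 and 8.19 on anti-CTLA4 arrays, 5.94, 6.78 and 4.99 on late ablation, 6.15, 5.97 and 7.13 on late control, 6.65, 7.23 and 8.39 on early ablation, and 7.71, 7.38 and 8.53 on early control arrays. Its lowest early control value lay above its highest late control value. Ncapd2 and Ncaph, subunits of condensin I, ranged from 5.43 to 7.83 and from 6.04 to 8.37. Ncapg and Smc4, 2 other condensin subunits, were each detected on 3 arrays and were the least variable members, with SDs of 0.28 and 0.29. Smc2, the partner of Smc4, was 4.79, 5.89 and 6.18 on anti-CTLA4 arrays, 5.55, 4.45 and 4.50 on late ablation, 5.31, 4.38 and 4.60 on late control, 4.66, 4.60 and 4.59 on early ablation, and 4.40, 4.55 and 4.58 on early control arrays, with detection on 4 arrays.

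**Figure D3:**
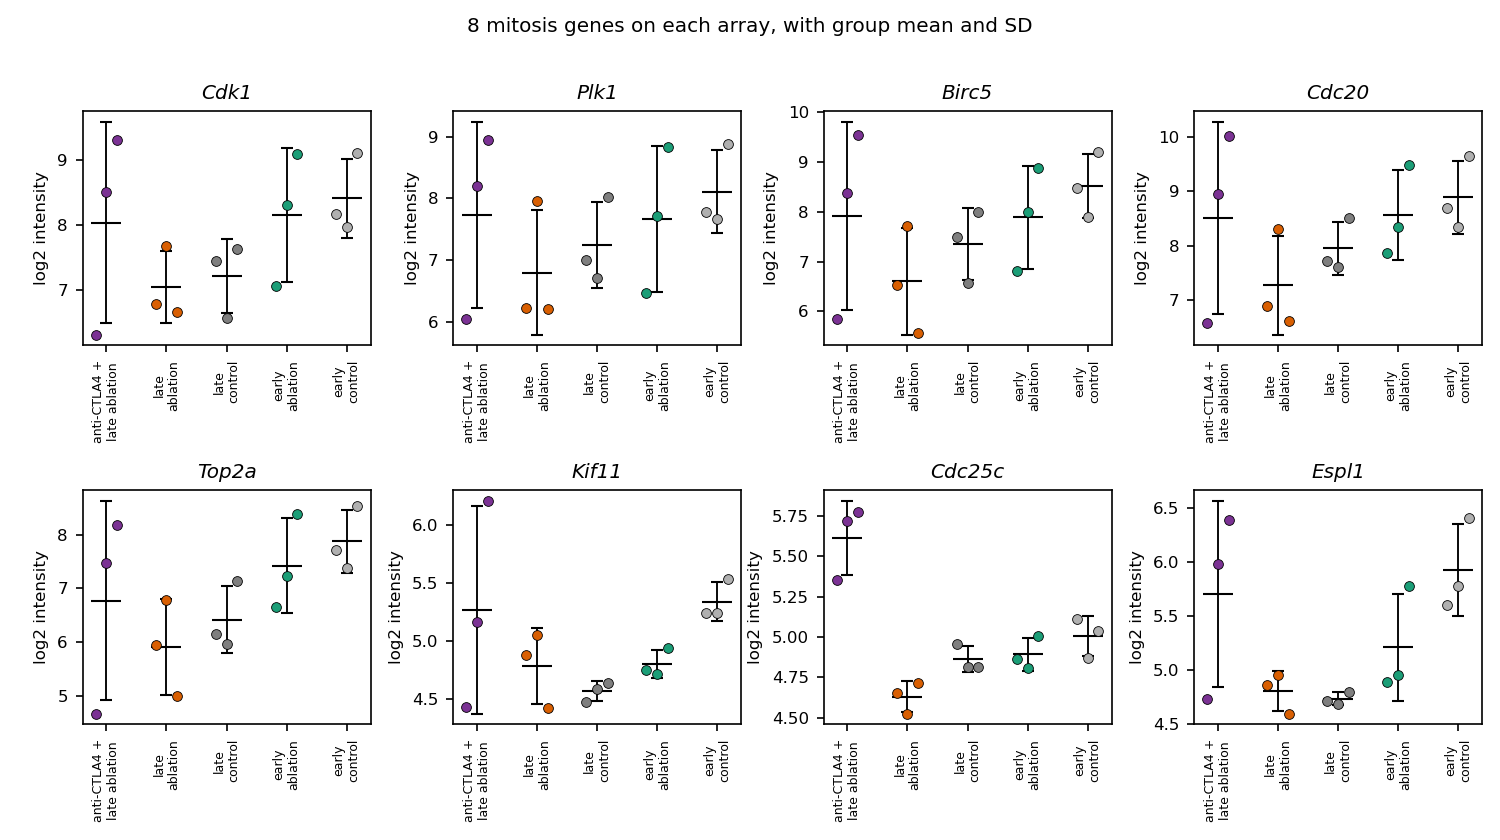
Log2 intensity of Cdk1, Plk1, Birc5, Cdc20, Top2a, Kif11, Cdc25c and Espl1 on each array, by group, with the group mean and SD (n = 3) as bars. The anti-CTLA4 arrays span the widest range in every panel, and in that of Cdc25c all 3 lie above all 12 other arrays.

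Early ablation against early control asked what ganciclovir at the precursor stage did to the tumour. No mitosis gene passed the test. Of the 34 genes tested, 27 were lower and 7 higher on early ablation arrays, with a median log2 difference of -0.35, against -0.01 over all 14633 features. With arrays scaled to their medians in place of quantile normalization, all features shifted by 0.25 and the members split into 19 higher and 15 lower, with a median of 0.02, which is -0.23 relative to that shift. In limma with Benjamini-Hochberg adjustment over all features, 0 of 34 genes had an adjusted p under 0.05 (background 0%), and the smallest was 0.522. At an unadjusted p under 0.05, 3 members were lower (background 3.86%) and 0 higher (background 4.86%).

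Those 3, Kif11, Ccnf and Espl1, were dim probes. Each was detected on all 3 early control arrays, where it was high. The detection filter thus favoured them, and their count is not read as an excess. Kif11 was 4.74, 4.70 and 4.92 on early ablation arrays, against 5.23, 5.22 and 5.52 on early control arrays (12-array normalization), a log2 difference of -0.54 ± 0.20 (SE, n = 3 each) with an adjusted p of 0.522 in limma. The groups did not overlap, but Kif11 was not detected on any early ablation array, and the bound was at least 1.27-fold lower. Bounds count an undetected array at the lowest signal detected there and take no account of the spread between arrays. Ccnf was 4.56, 4.68 and 4.99 on early ablation arrays, where it was not detected, against 5.20, 5.19 and 5.30 on early control arrays (at least 1.20-fold lower, adjusted p of 0.523 in limma). It passed the detection filter only through the early control arrays, where it was high. Espl1 was 4.87, 4.94 and 5.76 on early ablation arrays, against 5.58, 5.76 and 6.39 on early control arrays, with overlap, a difference of -0.72 ± 0.27 and an adjusted p of 0.526 in limma. Among the other main members, Birc5 differed by -0.63 ± 0.62, Top2a by -0.45 ± 0.54, Prc1 by -0.45 ± 0.65, Plk1 by -0.44 ± 0.64, Aurka by -0.43 ± 0.35, Bub1b by -0.38 ± 0.39 and Aurkb by -0.38 ± 0.45. Cdc20 differed by -0.33 ± 0.52, Cdk1 by -0.25 ± 0.50, Tpx2 by -0.19 ± 0.35, Ndc80 by -0.08 ± 0.33 and Cenpa by 0.02 ± 0.53. Ncapg, undetected in both groups, and Ncapd2 were, beside Kif23, the higher members with the smallest p, at 0.22 ± 0.24 and 0.19 ± 0.36.

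By role, all 6 spindle motors and assembly genes, all 3 genes of mitotic entry and all 3 passenger genes were lower, with medians of -0.36, -0.43 and -0.38, and 2 of 5 chromosome structure genes were lower, with a median of 0.05. In 2 members (Ncapg, and Kif23 by the 1 of its 4 probes that was higher) all early ablation values lay above all early control values (background 10.1%), and in 3 (Kif11, Ccnf and Bub3) all lay below (background 11.2%), which is near the background in both directions. Of 13 genes with more than 1 detected probe, all but Kif23 and Top2a had their probes on the same side. Without early ablation array 1 the median was 0.01, without early control array 3 it was -0.08, and without early ablation array 3 it was -0.56. The count at an unadjusted p under 0.05 was 0 without early control array 3 or early ablation array 2, 2 without early ablation array 1 and 5 without early ablation array 3. The share over all features is not given for these settings. DNA replication genes were lower in 31 of 36 (median -0.29), among them Pole, a replicative polymerase, at -1.14 ± 0.47 and Gins1, of the replicative helicase, at -0.63 ± 0.26. Other mitosis genes were lower in 35 of 58 (median -0.06), with Dsn1 of the kinetochore at 0.67 ± 0.23 and Cdc23 of the anaphase-promoting complex at 0.77 ± 0.32. Among regulators of this transcription, 13 of 24 were higher (median 0.05), with Ccnd2, a D-type cyclin, at 1.26 ± 0.45 and the MuvB subunit Rbbp4 at -0.51 ± 0.26. None of these passed the test.

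Levels of cell type markers also leaned to one side between these groups, though no marker passed the adjusted threshold. The 11 detected fibroblast markers of 12 listed were all higher on early ablation arrays (median 0.79), with array means of 0.07 to 1.22 on early ablation and -0.87 to 0.01 on early control arrays. The 11 detected ductal markers were all lower (median -0.42), with array means of -0.36 to -0.08 on early ablation and 0.12 to 0.25 on early control arrays. All 5 detected smooth muscle markers of 7 were higher (median 0.84), with array means of -0.38 to 1.65 on early ablation and -0.45 to 0.30 on early control arrays, and Cnn1 and Lmod1 were not detected. All 4 detected T cell markers of 10 were higher (median 0.58), with array means of -0.28 to 1.22 on early ablation and -0.21 to -0.03 on early control arrays. All 9 detected macrophage markers of 10 were higher, with array means of 0.34 to 0.80 on early ablation and -0.68 to 0.13 on early control arrays. Acinar markers averaged between -3.39 and 1.70 on early ablation and between -0.55 and 0.67 on early control arrays, and these did not run with the mitosis genes the same way in both groups. Early ablation array 1 was lowest of its group in acinar markers (-3.39) and in mitosis genes (-0.35), while early control array 3 was lowest of its group in acinar markers (-0.55) and highest in mitosis genes (0.88). The part of these cell types in the mitosis gene values was not tested.

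**Figure D4:**
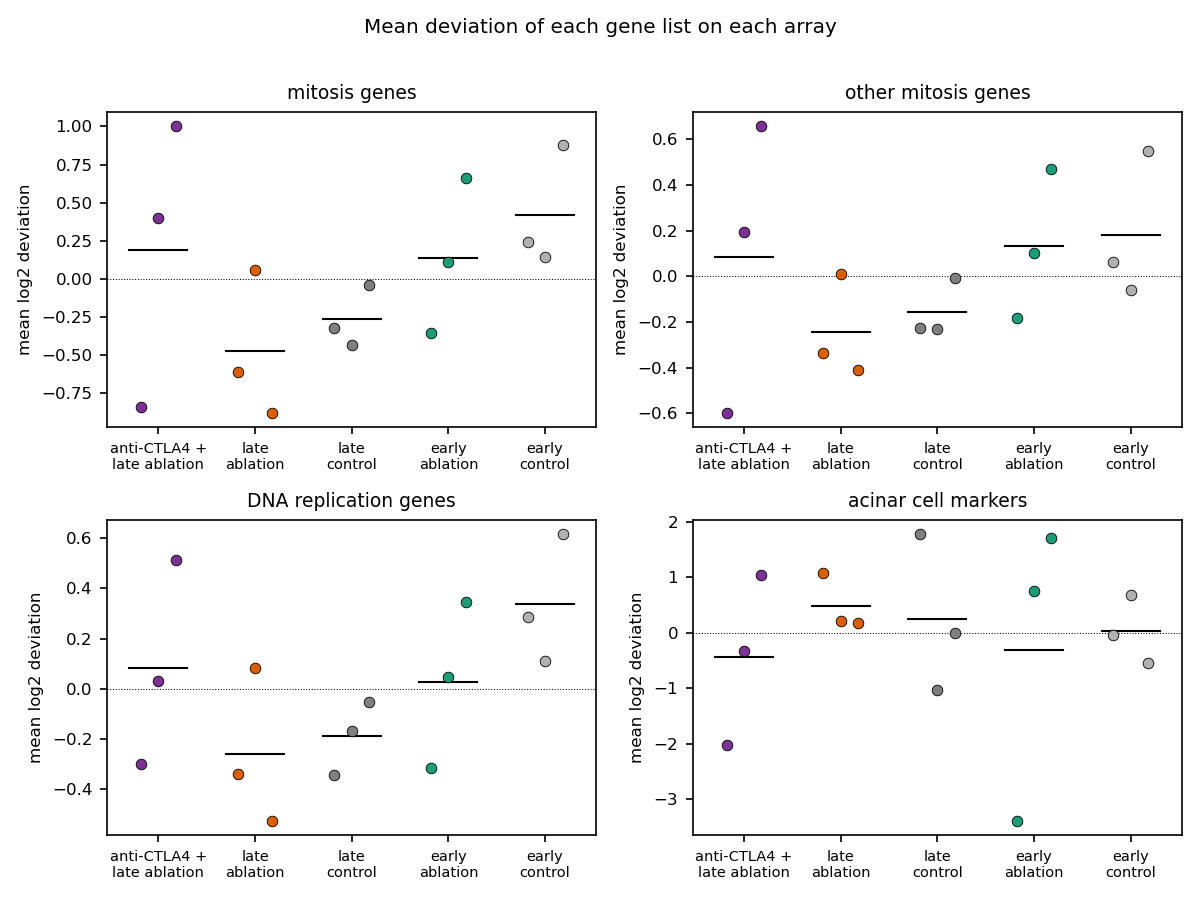
Mean log2 deviation from each gene's own mean over 15 arrays, on each array (points) and per group (bars are group means, n = 3), for 37 mitosis genes, 59 other mitosis genes, 37 DNA replication genes and 15 acinar markers. On the anti-CTLA4 arrays the mitosis genes run from -0.84 to 1.00 and the acinar markers from -2.03 to 1.03.

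Late ablation against late control asked the same of ganciclovir given to established tumours. Here, too, no mitosis gene passed the test. Of 34 genes tested, 25 were lower and 9 higher on late ablation arrays, with a median log2 difference of -0.13, against -0.01 over all features. In limma 0 of 34 genes had an adjusted p under 0.05 (background 0%), and every adjusted p was 1.00 after rounding. At an unadjusted p under 0.05, 1 gene was higher (background 0.998%) and 0 were lower (background 1.11%). That gene was Ccnf, at 4.60, 4.67 and 4.99 on late ablation arrays, against 4.34, 4.30 and 4.42 on late control arrays, but it was not detected on any array of either group, so no fold is given. The direction depended on the probe for several members: of 13 genes with more than 1 detected probe, 6 had all probes on the same side, and those of Anln, Bub3, Kif23, Kif4, Ncaph, Smc4 and Spc25 differed.

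Bub1b, Ncapd2 and Cdc20, of the checkpoint, condensin and anaphase, led the lower members by p. Bub1b was 5.65, 7.19 and 6.01 on late ablation arrays, against 6.44, 7.16 and 7.36 on late control arrays, a difference of -0.70 ± 0.39. Ncapd2 was 5.76, 6.81 and 5.42 on late ablation arrays, against 6.49, 6.63 and 6.65 on late control arrays, a difference of -0.60 ± 0.36. Cdc20 was 6.88, 8.30 and 6.61 on late ablation arrays, against 7.72, 7.61 and 8.51 on late control arrays, a difference of -0.68 ± 0.52. In all 3 genes late ablation array 2 lay within or above the control values while arrays 1 and 3 lay below. Birc5 differed by -0.76 ± 0.62, Prc1 by -0.75 ± 0.65, Cenpa by -0.66 ± 0.53, Top2a by -0.52 ± 0.54, Plk1 by -0.45 ± 0.64, Aurkb by -0.23 ± 0.45 and Ndc80 by -0.22 ± 0.33. Cdk1 differed by -0.17 ± 0.50, Aurka by -0.12 ± 0.35, Kif11 by 0.21 ± 0.20, Ncapg by 0.21 ± 0.24, and Tpx2, with the largest p, by 0.00 ± 0.35.

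In 1 member, Ccnf, all late ablation values lay above all late control values (background 1.87%), and in none did all lie below (background 2.54%). The median was -0.44 without late ablation array 2 and 0.01 without late ablation array 3. It was -0.02 without late control array 3, -0.24 without late control array 1 and -0.26 without late control array 2. The count at an unadjusted p under 0.05 was 6 without late ablation array 2, 2 without late control array 1, and 0 without late control array 2 or 3 or late ablation array 3. The share over all features is not given for these settings. Same-numbered late arrays deviated together, and with the number as a block among the late arrays the count was 0, with the same median. Spindle checkpoint and anaphase genes had the lowest median by role, -0.43, with 4 of 5 lower. Other mitosis genes were lower in 36 of 58 (median -0.10), with Spc24 and Kif18b at 0.47 ± 0.25 and -0.50 ± 0.35, and DNA replication genes in 25 of 36 (median -0.08), with Ung and Pole at -0.46 ± 0.32 and -0.55 ± 0.47. Regulators were higher in 16 of 24 (median 0.09), with Myc and E2f3 at 0.63 ± 0.24 and 0.69 ± 0.35. All 4 detected T cell markers of 10 were lower, with array means of -0.29 to -0.08 on late ablation and -0.12 to 0.31 on late control arrays, and Cd2, Cd4 and Cd8a were not detected. Detected endothelial markers were lower in 6 of 7, macrophage markers in 7 of 9, smooth muscle markers in 4 of 5 and B cell markers in 2 of 2. Fibroblast and ductal markers were lower in 6 of 11 each, while acinar markers were higher in 11 of 15 and erythroid markers in 3 of 3. The part of these lists in the result was not tested.

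The difference between the late and the early effect of ablation was tested as an interaction. The members split evenly, 17 higher and 17 lower, with a median of 0.04, against 0.00 over all features. In limma 0 of 34 had an adjusted p under 0.05 (background 0%), and the smallest was 0.984. At an unadjusted p under 0.05, 2 members were higher (background 1.93%) and 0 lower (background 2.71%), Ccnf at 0.89 ± 0.25 and Kif11 at 0.75 ± 0.28. Both were undetected on most arrays involved, and Ccnf passed the detection filter only through the early control arrays, where it was high. Kif11 was also detected on every early control array, so the filter favoured it as well. With detection at p under 0.01 the count was 0. Espl1 followed at 0.79 ± 0.38, and Ncapd2, Mad2l1 and Kif23 had the smallest p among the lower ones, at -0.78 ± 0.51, -0.58 ± 0.51 and -1.02 ± 1.12. The other probes of Kif23 went the other way, at 0.78, 0.32 and 0.87. Of 13 genes with more than 1 detected probe, 8 had all probes on the same side here, and Birc5, Cdc20, Kif23, Ncaph and Smc4 did not. Plk1 had the largest p, with a difference of -0.01 ± 0.90, and Cdk1, Birc5 and Top2a differed by 0.08 ± 0.71, -0.13 ± 0.88 and -0.07 ± 0.76. Median scaling shifted all features by -0.23 and gave 9 higher and 25 lower members, with a median of 0.04 relative to that shift. Other mitosis genes were lower in 34 of 58 (median -0.06), with Dsn1 at -0.86 ± 0.32 and Spc24 at 0.74 ± 0.35. DNA replication genes were higher in 27 of 36 (median 0.21), with the origin-licensing factor Cdc6 at 1.0 ± 0.52 and the primase subunit Prim2 at 0.68 ± 0.38. Regulators were higher in 17 of 24 (median 0.18), with Myc at 0.54 ± 0.33 and Ccnd2 at -1.02 ± 0.64.

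Late control against early control compared tumours that received no ganciclovir, and here nearly all members lay on one side. Of 34 genes tested, 32 were lower and 2 higher on late control arrays, with a median log2 difference of -0.75, against -0.01 over all features. Median scaling gave the same split, with all features shifted by 0.15 and a members' median of -0.68 relative to that shift. No gene passed the test: in limma 0 of 34 had an adjusted p under 0.05 (background 0%), and the smallest was 0.272. At an unadjusted p under 0.05, 13 members were lower (background 4.92%) and 0 higher (background 5.06%). In 15 members all late control values lay below all early control values (background 9.06%), and in none did all lie above (background 8.86%). The labels name both groups as controls of different ablation schedules and give no further difference between them, so that tumour stage, cohort and time cannot be told apart.

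The 13 genes came from 6 of the 8 roles. Ccnf was 4.34, 4.30 and 4.42 on late control arrays, against 5.20, 5.19 and 5.30 on early control arrays, a difference of -0.88 ± 0.18 with an adjusted p of 0.272 in limma and a bound of at least 1.16-fold lower. Espl1 was 4.70, 4.67 and 4.78 on late control arrays, against 5.58, 5.76 and 6.39 on early control arrays, -1.19 ± 0.27 and at least 1.86-fold lower. Kif11 was 4.46, 4.57 and 4.63 on late control arrays, against 5.23, 5.22 and 5.52 on early control arrays, -0.77 ± 0.20 and at least 1.23-fold lower. These 3 were detected on all early control arrays and on no late control array. Ccnf was detected on early control arrays alone, so it passed the detection filter only through the group where it was high. Espl1 and Kif11 were each detected on 6 of the 15 arrays, 3 of them early control arrays, so their passing also rested on that group. The 13 lower members and the 15 without overlap include these 3 genes. Top2a was 6.14, 5.96 and 7.13 on late control arrays, against 7.70, 7.38 and 8.52 on early control arrays, a difference of -1.46 ± 0.54 and the largest of any member. Cdk1 was 7.45, 6.57 and 7.63 on late control arrays, against 8.16, 7.96 and 9.09 on early control arrays, a difference of -1.19 ± 0.50. Aurka differed by -0.98 ± 0.35, Bub1b by -0.92 ± 0.39, Kifc1 by -1.03 ± 0.37, Cenph by -1.0 ± 0.28, Ncaph by -0.70 ± 0.24, Cenpk by -0.70 ± 0.30, Cdc25b by -0.64 ± 0.26 and Bub3 by -0.55 ± 0.23. All of these but Cenpk and Cdc25b were without overlap between the groups.

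The other main members had an unadjusted p above 0.05. Birc5 differed by -1.17 ± 0.62, Prc1 by -1.0 ± 0.65, Cdc20 by -0.94 ± 0.52, Aurkb by -0.90 ± 0.45, Plk1 by -0.86 ± 0.64, Tpx2 by -0.75 ± 0.35, Cenpa by -0.60 ± 0.53 and Ndc80 by -0.39 ± 0.33. The 3 probes of Birc5 gave -1.17, -1.46 and -1.63, and the 4 probes of Cdc20 gave between -1.17 and -0.18. Among genes at an unadjusted p under 0.05, second probes gave -0.10 for Bub1b, -0.22 for Top2a, -0.37 for Bub3 and -0.64 for Ncaph. Each of these was a smaller difference than on the probe used. Of 13 genes with more than 1 detected probe, 11 had all probes on the same side here, and Kif23 and Ncapd2 did not. Only Ncapg (0.31 ± 0.24) and Kif23 (0.39 ± 0.79) were higher, and the other 3 probes of Kif23 gave -0.10, -0.88 and -1.11. All members of 6 roles were lower, with medians between -0.92 for the spindle checkpoint and anaphase and -0.67 for centromere and kinetochore. The count at an unadjusted p under 0.05 was 4 without early control array 3, the array highest in mitosis genes in its group, where the median was -0.56. It was 9 to 14 without any other single array, 5 with median scaling and 7 with all 15 arrays normalized together. The share over all features is not given for these settings. With array weights 4 members passed the adjusted threshold, among them Ccnf (-0.84), Espl1 (-1.21) and Kif11 (-0.74), and with the authors' deposited values 1 passed, Ccnf.

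Genes of neighbouring processes lay on the same side. Over all features, 4.92% were lower and 5.06% higher at an unadjusted p under 0.05, which is the background for the counts here. DNA replication genes were lower in 32 of 36 (median -0.50), 10 of them at an unadjusted p under 0.05 and 0 higher. Mcm4 and Mcm3, subunits of the replicative helicase, were at -0.85 ± 0.24 and -1.18 ± 0.38. Other mitosis genes were lower in 48 of 58 (median -0.35), with 8 lower and 2 higher at an unadjusted p under 0.05, among them Zw10 of the checkpoint at -0.74 ± 0.24 and Cdc27 of the anaphase-promoting complex at 0.67 ± 0.23. Of 24 regulators 11 were lower (median 0.01), and those with the smallest p were Rbl1, the pocket protein p107, at -1.02 ± 0.29 and Mybl2, which codes for B-MYB, at -0.88 ± 0.31. Of 11 detected fibroblast markers 10 were higher on late control arrays (median 0.52), with array means of -0.96 to 1.01 on late control and -0.87 to 0.01 on early control arrays, and 9 of 11 ductal markers were lower (median -0.18), with array means of -0.33 to 0.31 and 0.12 to 0.25. Their part in the mitosis gene values was not tested. Early ablation against early control and late control against early control share the 3 early control arrays, among them array 3, so the lower values in both are not independent.

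Anti-CTLA4 with late ablation against late ablation alone asked what the added antibody treatment did. Of 37 genes tested, 34 were higher and 3 lower on anti-CTLA4 arrays, with a median log2 difference of 0.79, against 0.00 over all 15098 features, and median scaling gave the same split. In limma 0 of 37 had an adjusted p under 0.05 (background 0.00662%, 1 feature), and the smallest was 0.080, of Cdc25c. At an unadjusted p under 0.05, 5 members were higher (background 4.06%) and 0 lower (background 3.7%). Of these 5, Cdc25c, Cenpf and Smc2 passed the detection filter only with the anti-CTLA4 arrays included, so the count is not read as an excess. With detection at p under 0.01 the count was 2. In 3 members (Cdc25c, Cenpf and Cenpk) all anti-CTLA4 values lay above all late ablation values (background 5.01%), and in none did all lie below (background 5.31%). For Cdc25c and Cenpf the same filter favoured values that were high on anti-CTLA4 arrays. The anti-CTLA4 arrays were deposited in a table of their own, so treatment and table cannot be told apart.

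Of these 5 genes, Cdc25c, Cenpf, Espl1 and Smc2 were near background, with detection on 3 to 6 of the 15 arrays, and Cenpk was detected on all 15. Cdc25c, whose values on every array are given above, differed by 0.99 ± 0.17 and was at least 1.46-fold higher, with no late ablation array detected. Its adjusted p was 0.042 with the authors' deposited values, 0.020 with no detection filter, 0.025 with array weights and 0.048 without anti-CTLA4 array 1, all from limma, so that its call depended on the setting. Cenpf differed by 0.67 ± 0.19, with 5.47, 5.62 and 5.37 on anti-CTLA4 arrays, against 4.88, 4.82 and 4.75 on late ablation arrays, where it was not detected (at least 1.34-fold higher, adjusted p of 0.366 in limma). Cenpk was 5.93, 6.37 and 6.57 on anti-CTLA4 arrays, against 5.63, 5.39 and 5.45 on late ablation arrays, a difference of 0.80 ± 0.30 without overlap. Espl1 was 4.73, 5.98 and 6.39 on anti-CTLA4 arrays, against 4.86, 4.95 and 4.59 on late ablation arrays (0.90 ± 0.37, at least 1.55-fold higher). Smc2 differed by 0.79 ± 0.36 with overlap, since late ablation array 1 was at 5.55, and it was detected on 2 anti-CTLA4 arrays and 1 late ablation array.

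**Figure D5:**
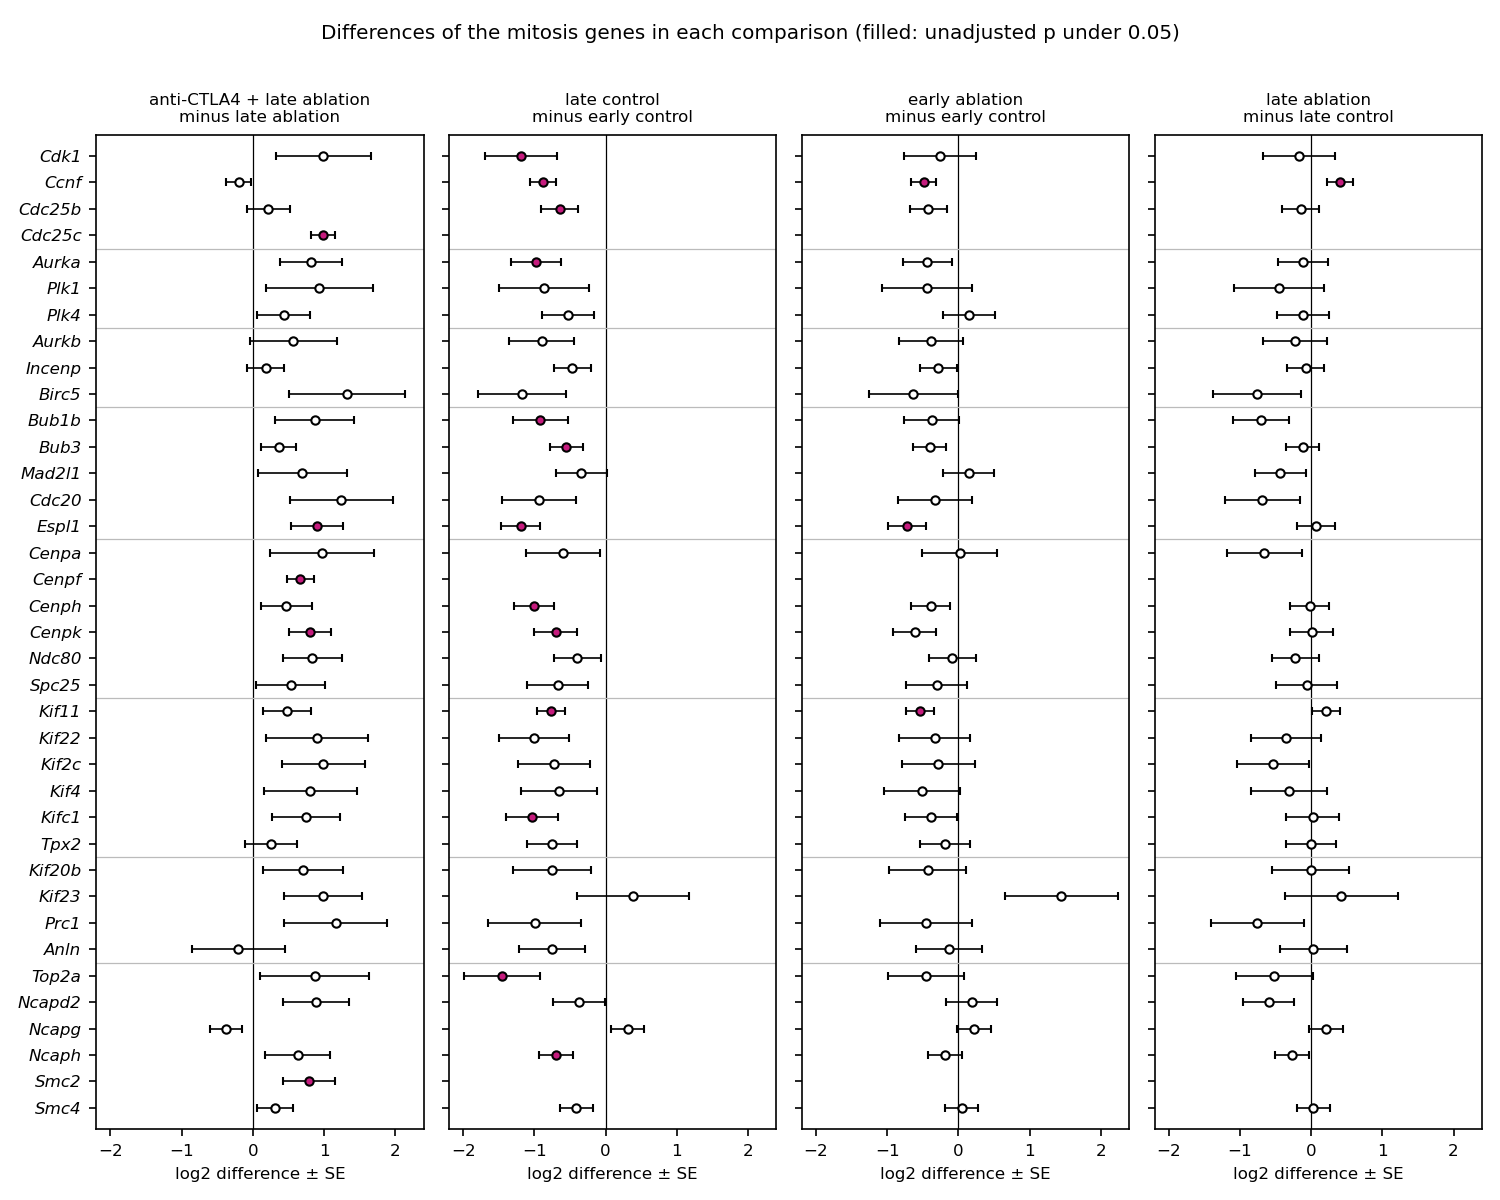
Log2 difference ± SE of each detected mitosis gene (rows, grouped by role) in 4 comparisons, with genes at an unadjusted p under 0.05 filled. Most points lie right of 0 for anti-CTLA4 with late ablation and left of 0 for late control, and no gene passed the adjusted threshold in any panel. The early ablation panel, 27 of 34 genes left of 0, had 15 of 34 left of 0 under median scaling, which shifted all features by 0.25.

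None of the other main members reached an unadjusted p under 0.05. Birc5 differed by 1.32 ± 0.82, Cdc20 by 1.25 ± 0.73, Prc1 by 1.17 ± 0.72, Cdk1 by 0.99 ± 0.67, Cenpa by 0.97 ± 0.73, Plk1 by 0.94 ± 0.75, Bub1b by 0.87 ± 0.56 and Top2a by 0.87 ± 0.76. Ndc80 differed by 0.84 ± 0.42, Aurka by 0.82 ± 0.44, Aurkb by 0.57 ± 0.61, Kif11 by 0.48 ± 0.33 and Tpx2 by 0.26 ± 0.36. In each of these 13 genes anti-CTLA4 arrays 2 and 3 were higher than array 1. The 3 lower members were Ncapg (-0.38 ± 0.22), Ccnf (-0.20 ± 0.17) and Anln (-0.20 ± 0.65), and Anln had the largest p of all members. The 3 probes of Birc5 gave 1.32, 1.41 and 1.14, and the 4 probes of Cdc20 between 0.78 and 1.25. Of 13 genes with more than 1 detected probe, 9 had all probes on the same side here, and Bub3, Kif23, Kif4 and Smc4 did not, with 0.98, 0.82, 0.90 and -1.07 for the 4 probes of Kif23.

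The size of this difference rested on single arrays. The median was 1.33 without anti-CTLA4 array 1 and 0.27 without anti-CTLA4 array 3, and 0.50 without late ablation array 3. The count at an unadjusted p under 0.05 was 26 of 37 without anti-CTLA4 array 1, 13 without late ablation array 2, 3 without late ablation array 3 or anti-CTLA4 array 2, and 2 without anti-CTLA4 array 3. With array weights, which give less weight to arrays far from their group, 19 members were at an unadjusted p under 0.05. No share over all features is given for these settings, so none of these counts is read as an excess. Every role was on the higher side, with medians between 0.57 for the chromosomal passenger complex and 0.87 for spindle checkpoint and anaphase. Other mitosis genes were higher in 42 of 59 (median 0.30), with Kntc1, a checkpoint protein, at 0.93 ± 0.33 and Sgo2a, which guards cohesin, at 1.09 ± 0.42. DNA replication genes were higher in 33 of 37 (median 0.32), with Gins2 at 0.93 ± 0.37 and Tk1, the cell's own thymidine kinase, at 0.91 ± 0.39. Regulators split 12 and 12 (median 0.03), with Rbbp4 at 0.62 ± 0.25 and Myc at -0.44 ± 0.23.

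Acinar and smooth muscle markers were mostly lower on anti-CTLA4 arrays, but none passed the adjusted threshold, and the array means of the groups overlapped. Of 15 detected acinar markers of 18 listed, 13 were lower on anti-CTLA4 arrays (median -1.0), with array means of -2.03 to 1.03 on anti-CTLA4 and 0.18 to 1.07 on late ablation arrays. Anti-CTLA4 array 1 was lowest of its group in acinar markers (-2.03) and mitosis genes (-0.84), and array 3 highest in both (1.03 and 1.0), while late ablation array 1 was highest of its group in acinar markers (1.07) at -0.61 in mitosis genes. All 5 detected smooth muscle markers of 7 were lower (median -0.72), with array means of -1.28 to -0.54 on anti-CTLA4 and -1.01 to 0.62 on late ablation arrays. T cell markers averaged -0.33 to -0.18 on anti-CTLA4 and -0.29 to -0.08 on late ablation arrays, and Cd2, Cd4 and Cd8a were not detected. The part of these lists in the mitosis gene values was not tested.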

How the data were processed

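RNA of 15 tumour samples, in 5 groups of 3 taken from the sample titles, was measured on Illumina mouse bead arrays. Per the labels' protocols, RNA was extracted with Trizol and biotinylated cRNA made with a MessageAmp kit, and per the submitters' processing notes GenomeStudio was used, with no version given. The 2 deposited unnormalized tables give a bead intensity per probe and array (12 arrays and 3), with a detection p-value beside it. A deposited value table holds intensity on a linear scale, some values below 0, and the steps behind it are not given in the sources used here.

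In limma 3.58.1 under R 4.3.3, normexp took the background of each array from its detection p-values, with an offset of 16, and quantile normalization and log2 followed. Probes detected at p under 0.05 on 3 or more arrays of a fit were kept, and the brightest probe stood for each symbol. Of 45281 probes, 34885 had 1 symbol, 18 several and 10378 none. Early and late ablation and control were fitted over 12 arrays, and anti-CTLA4 over 15 arrays, with lmFit and eBayes, two-sided, adjusted by Benjamini-Hochberg over all features with a threshold of 0.05. The test was checked on simulated data with the early comparison's 14633 features, where 2% of genes changed by 0.5, 30% of those changed by 1, 80% of those changed by 2 and 94% of those changed by 3 log2 units were called. The changed genes were drawn at random from all features, and the simulated noise was independent between genes. The mitosis genes varied together between arrays of a group, so these rates need not hold for them. The number of arrays limits the precision, since arrays give no counts.

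The members and all gene lists were chosen with earlier results of these data known. Named genes are the detected ones of a list of main mitosis genes, with the 3 smallest p in each direction and the largest p in each comparison, and 2 genes of each other list. Same-numbered arrays deviated together in late ablation and late control (correlations of 0.59, 0.39 and 0.14 between deviations from group means) but not in the other comparisons, where at least 1 number correlated under 0.1. The labels give no source for a pairing. Alternatives were another normalization, offset, filter, probe rule, array set, value table, array weights, the replicate block and leaving out each array. No column of another series was found. Promoters came from RefSeq on GRCm38.p6.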

Additional observations from a re-analysis of the deposited data

Results flagged for a closer look

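Ccnf was the 1 mitosis gene whose ablation and control values separated without overlap in opposite directions at the 2 stages. It was lower on early ablation than on early control arrays, with -0.49 ± 0.18 (SE, n = 3 each), and higher on late ablation than on late control arrays, with 0.40 ± 0.18, on the log2 scale. The interaction was 0.89 ± 0.25, with an adjusted p of 0.984 in limma, so the difference between stages did not pass the test. Over all features, 54 of 14633 (0.369%) separated in opposite directions in this way. Ccnf was detected on the 3 early control arrays and on none of the other 9 arrays of that fit, so its late values are not well above background. It passed the detection filter only through those early control arrays, where it was high.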

How the results depend on the processing

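No member passed the adjusted threshold in early ablation, in late ablation or in the difference between stages under any alternative run. For late control against early control, 1 member passed with the authors' deposited values and 4 with array weights. For anti-CTLA4 with late ablation, 1 member (Cdc25c) passed with the authors' deposited values, with no detection filter and with array weights, and leaving out single arrays gave 0 to 1. Medians without single arrays ran from 0.27 to 1.33 for anti-CTLA4, -0.56 to 0.01 for early ablation, -0.44 to 0.01 for late ablation, -0.24 to 0.35 for the difference between stages, and -0.92 to -0.56 for late control. Under the other alternatives they ran from 0.51 to 1.00, -0.35 to 0.02, -0.29 to -0.09, -0.24 to 0.11 and -0.83 to -0.51, in the same order. Kif23 in early ablation turned to -0.12 with the mean of all detected probes and -0.61 with all 15 arrays together, because other probes then stand for it. Counts at an unadjusted p under 0.05 without single arrays ran from 2 to 26, 0 to 5, 0 to 6, 1 to 3 and 4 to 14, and under the other alternatives from 2 to 19, 1 to 6, 0 to 2, 0 to 3 and 5 to 17. Shares over all features are not given for these settings, so the counts are not read as an excess. With the replicate block, 0 members passed in any comparison, medians did not change (-0.35, -0.13, -0.75, 0.04 and 0.79 for early ablation, late ablation, late control, the difference and anti-CTLA4), and the counts at an unadjusted p under 0.05 were 3, 1, 14, 2 and 6. The block restricted to the late groups was chosen after seeing the data. Of 1494 values of named genes under alternatives, 1484 kept direction and side of the threshold, 8 passed it anew and 2 reversed, apart from 84 sign changes of differences smaller than their SE. Slide as a block was not run, since the file headers give no slide. Probes near background, such as Ccnf, Cdc25c, Cenpf, Kif11 and Espl1, limit what their folds show.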
